A study of Homo sapiens with 8 samples.

Results

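Immediate early genes are switched on within minutes of a growth factor, cytokine or stress signal, before any new protein has to be made. Their messages and proteins are mostly short-lived, so how well a message is translated while it lasts sets how much protein a burst of transcription gives. Many encode transcription factors. JUN and FOS family proteins pair through leucine zippers to form AP-1, which acts on matrix, protease and cell cycle genes, and in the liver the stellate cells that turn into scar-forming myofibroblasts are a known site of AP-1, MYC and KLF6 activity. The 10 genes described here are the AP-1 subunits JUN, JUNB, JUND, FOSL1 and FOSL2, the factors MYC and KLF6, and the immediate early response genes IER2, IER3 and IER5. They were taken by gene name from the 12109 transcripts of the authors' deposited table, in which each of the 10 has 1 transcript. The choice was made with the changes in that table known, so the values of this comparison are given as a description.

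The study compared human hepatic stellate cells given dsiLARP6, labelled LARP6 kd, with cells given dsi-control, labelled WT. LARP6 is an RNA-binding protein of the La-related family, described as a binder of collagen messages. Each condition had 2 RNA-seq and 2 ribosome profiling libraries, 8 in all. The labels call the cells a cell line without a further name; they were grown in serum, and cycloheximide, which arrests ribosomes, was applied before lysis for the profiling libraries. Translation efficiency is the amount of ribosome footprints relative to RNA. The authors' deposited table gives its log2 value in knockdown cells, its log2 change in knockdown over control cells, and p-values; the control level was derived here as the knockdown level minus the change. No value per library, depth or standard error stands in the table, so levels and changes below carry no spread between replicates. Of 14 stellate cell markers 8 were measured, among them DCN, LUM, PDGFRB and ACTA2. At an authors' adjusted p under 0.05, 6 of these 8 had lower efficiency in the knockdown, beside 1.12% of all transcripts. DES, LRAT, RGS5, LHX2, GFAP and NGFR had no entry under these names in the authors' deposited table. Of the hepatocyte, endothelial, leukocyte and biliary markers listed, 2 of 9, 2 of 8, 2 of 8 and 3 of 5 were measured. In that order they were APOA1 and SERPINA1, TEK and VWF, CD68 and CD14, and SOX9, KRT7 and KRT19.

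The letters around each start codon show what a scanning ribosome meets on these messages. They are from the GENCODE 29 transcript that each entry of the table names, 5′ to 3′, with the start codon in capitals. A purine 3 bases before the ATG and a G right after it are known to favour initiation. MYC is left out of the printed set; its annotated coding region in this transcript begins at a codon other than ATG.
JUN: acggactgttctATGactgca
JUNB: tgggccgcccggATGtgcact
JUND: gggaggcggaggATGgaaaca
FOSL1: ccagccccgggcATGttccga
FOSL2: ccaccgcggatcATGtaccag
KLF6: acccggcccgacATGgacgtg
IER2: cgtcgagtcgccATGgaagtg
IER3: gctcggctcaccATGtgtcac
IER5: caggggaagcagATGgagttc
JUND, KLF6 and IER2 carry both features, which 46.8% of 10173 protein-coding transcripts of the table do. Those 10173 have an ATG start and at least 12 bases of 5′ UTR. FOSL1, FOSL2 and IER3 have the purine alone, as do 40.2% of those transcripts, and IER5 has the G alone, as do 6.81%. JUN and JUNB have neither, a state shared by 6.18% of the transcripts. Of the 3 genes whose efficiency rose in the knockdown, described next, JUN, IER2 and IER3 thus each have a different start context.

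After LARP6 knockdown the translation efficiency of JUN, IER2 and IER3 was higher, and no member was called lower. Efficiency is a ratio, and no separate change of footprints or of RNA is given here. Whether footprints rose or RNA fell was therefore not tested. Of the 10 genes, 3 passed the adjusted p threshold of 0.05 in the authors' deposited table, against a share of 2.20% over all 12109 transcripts (1.07% higher and 1.12% lower). Because the genes were chosen from this same comparison, nothing is read from that count. For the other 7 the authors' deposited table lists adjusted p-values of 0.47 or more. Of these 7, IER5 had a log2 change of −0.63, and the other 6 lay between −0.15 and 0.17. The median over the 10 genes was 0.11 in the authors' deposited table, beside 0.015 over all transcripts. The middle 90% of all transcripts, from percentile 5 to percentile 95, ran from −1.05 to 0.98 in log2 change.

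**Figure D1:**
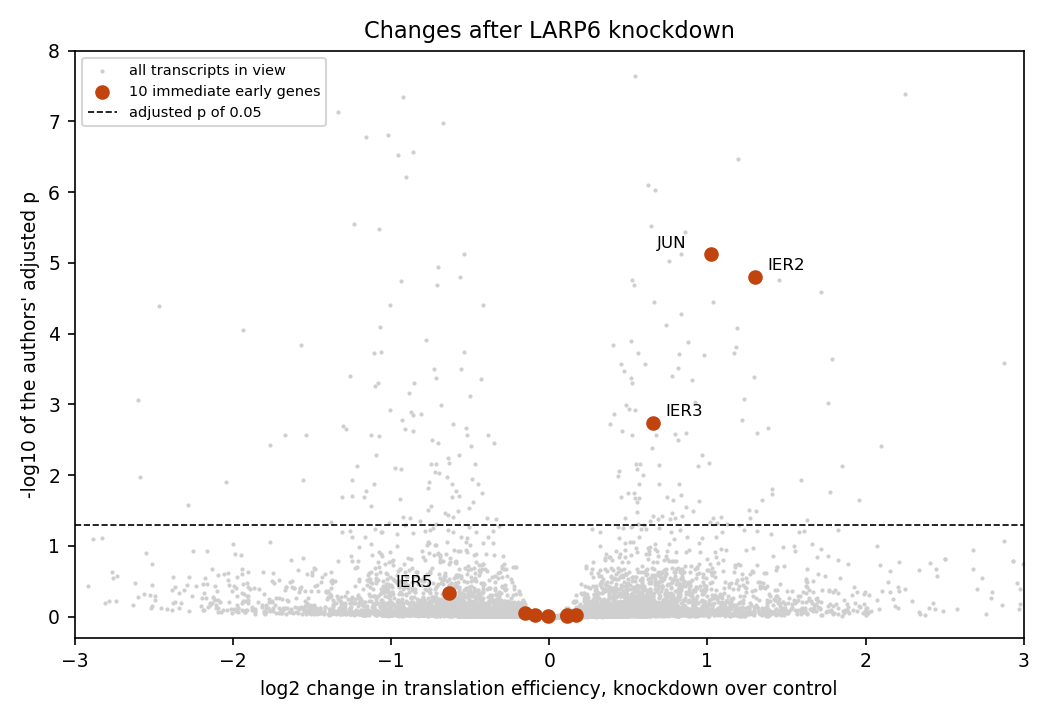
Log2 change in translation efficiency of knockdown over control cells (x axis) against −log10 of the authors' adjusted p (y axis), for all transcripts in view (grey) and the 10 immediate early genes (orange); the dashed line is an adjusted p of 0.05, and 64 transcripts beyond a log2 change of 3 in either direction or a −log10 of 8 are out of view. JUN, IER2 and IER3 lie above the line on the right, IER5 lies below it at −0.63, and the 6 unlabelled genes sit near 0.

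Within the JUN proteins, which can pair with each other or with FOS proteins, the rise was found for JUN. JUN (chromosome 1, 58780788 to 58784327, minus strand, GRCh38), the founding AP-1 subunit and a target of the JNK kinases, had a log2 efficiency of −0.20 in knockdown cells and a derived −1.22 in control cells. The authors' deposited table lists a log2 change of 1.02, or 2.03-fold higher in the knockdown, with an adjusted p of 7.6e-06. JUN thus stood above 42.1% of all transcripts in knockdown cells and above 13.3% in control cells. JUNB (chromosome 19, 12791496 to 12793315), which often acts opposite to JUN in proliferation, had log2 efficiencies of 0.29 in knockdown and 0.18 in control cells, and the authors' deposited table lists a change of 0.12 (adjusted p = 0.94). JUND (chromosome 19, 18279760 to 18281622), the JUN protein that resting cells also hold, had 0.31 in knockdown and 0.46 in control cells, and the authors' deposited table lists a change of −0.15 (adjusted p = 0.88). On the efficiency scale JUNB lay 1.40-fold above JUN in knockdown cells and 2.63-fold above it in control cells. For JUND over JUN the ratios were 1.42 in knockdown and 3.20 in control cells. Whether the change of JUN differs from those of JUNB and JUND was not tested.

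Both FOS-related subunits, which lack the strong activation domain of FOS and bind DNA as partners of JUN proteins, had low efficiencies in both conditions. FOSL1 (chromosome 11, 65892220 to 65900526) was the lowest of the 10 genes, with log2 efficiencies of −1.74 in knockdown and −1.85 in control cells. Only 6.60% of all transcripts in knockdown cells and 5.98% in control cells lay below it. The authors' deposited table lists a log2 change of 0.11 for it (adjusted p = 0.98). FOSL2 (chromosome 2, 28392858 to 28417312) had −0.94 in knockdown and −0.93 in control cells, and its change was the smallest of the 10, listed in the authors' deposited table as −0.01 (adjusted p = 0.996).

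MYC and KLF6 showed no called change. MYC (chromosome 8, 127736069 to 127741434), the factor that drives growth and ribosome production, had log2 efficiencies of 0.39 in knockdown and 0.23 in control cells, and the authors' deposited table lists a change of 0.17 (adjusted p = 0.94). KLF6 (chromosome 10, 3775996 to 3785275), a zinc finger factor known from work on activated stellate cells, had −0.49 in knockdown and −0.40 in control cells, and the authors' deposited table lists a change of −0.09 (adjusted p = 0.96).

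Of the 3 IER genes, of which IER2 and IER5 have similar N-termini, IER2 and IER3 rose and IER5 was not called. IER2 (chromosome 19, 13150433 to 13154908), a nuclear protein of growth factor responses, had the largest change of the 10. Its log2 efficiency was 0.39 in knockdown and −0.91 in control cells, a change of 1.30 in the authors' deposited table (2.46-fold higher, adjusted p = 1.6e-05). IER2 stood above the middle of the table in knockdown cells and below it in control cells: 64.0% of transcripts had a lower level in knockdown cells and 19.6% in control cells. IER3 (chromosome 6, 30743199 to 30744554), a regulator of cell survival and of ERK signalling, was already efficient, with 0.95 in knockdown and 0.29 in control cells. Its change in the authors' deposited table was 0.66, or 1.58-fold higher in the knockdown, with an adjusted p of 0.0018. IER5 (chromosome 1, 181088712 to 181092899), known for regulating heat shock factor HSF1, had −0.90 in knockdown and −0.27 in control cells. Its log2 change of −0.63 stands in the authors' deposited table with an unadjusted p of 0.046 and an adjusted one of 0.47, so it was not called. An unadjusted p under 0.05 was reached by 10.3% of all transcripts. Among the 130 called rises of the authors' deposited table, IER2 ranked 31, JUN 50 and IER3 90 by size. Over all transcripts, called or not, IER2 ranked 319, JUN 561 and IER3 1371 from the top. The change of IER3 was above that of 88.7% of all transcripts, inside the middle 90%.

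**Figure D2:**
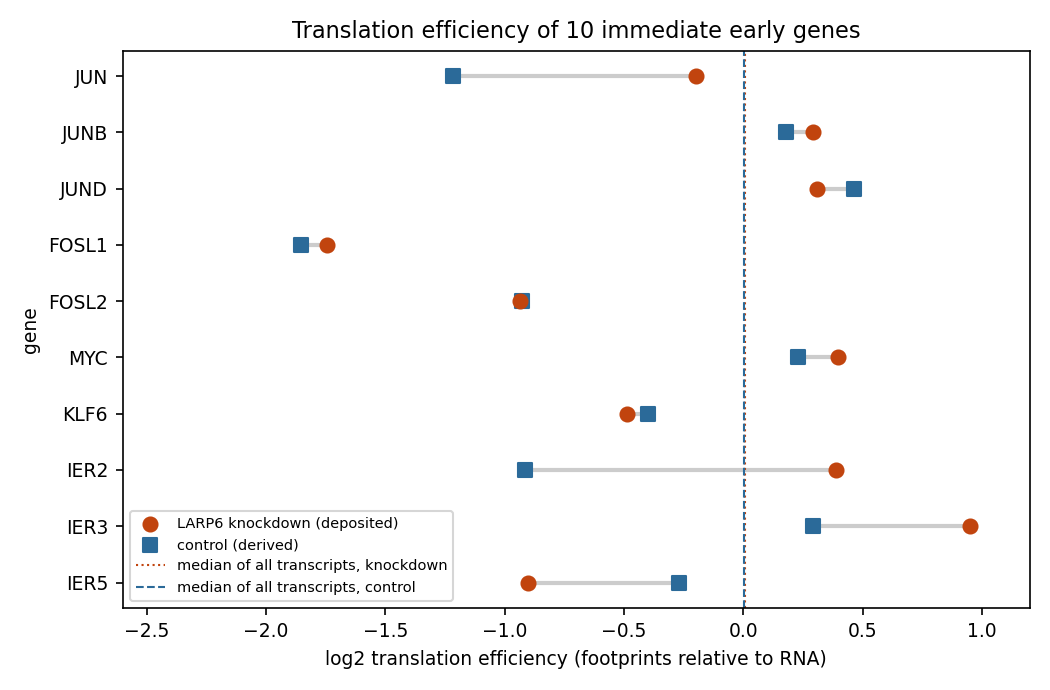
Log2 translation efficiency (x axis) of the 10 genes (rows) in LARP6 knockdown cells (orange circles, as deposited) and control cells (blue squares, derived); the vertical lines are the medians of all transcripts, and no error can be drawn. JUN, IER2 and IER3 have the knockdown circle well to the right of the control square, and IER5 has it to the left.

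By level, the order in knockdown cells from high to low was IER3, MYC, IER2, JUND, JUNB, JUN, KLF6, IER5, FOSL2 and FOSL1. In control cells it was JUND, IER3, MYC, JUNB, IER5, KLF6, IER2, FOSL2, JUN and FOSL1. The 10 genes spanned 2.69 log2 units in knockdown and 2.32 in control cells, and 5 lay above the median of all transcripts in knockdown cells, against 4 in control cells. Without values per library, neighbours in these orders cannot be told apart. Levels between genes also depend on which part of a message was counted, and the sources used here do not say which. The coding part made up 14.6% of the FOSL2 transcript and 57.7% of that of MYC. Across the 10 genes the coding share and the log2 efficiency had a Spearman rho of 0.53 in knockdown and 0.49 in control cells, beside −0.02 and −0.03 over the 10560 protein-coding transcripts; these points share the same libraries. The change in efficiency compares the same entry between conditions. Whether the RNAs counted under an entry shifted between conditions was not tested.

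The leader, the 5′ UTR that is scanned before the start codon, differed widely among the 10 genes. JUN had the longest, at 1257 bases, longer than in 99.4% of protein-coding transcripts, and IER3 the shortest, at 36 bases, which 8.71% of transcripts undercut. The JUN leader is known from other human cells as one that the initiation factor subunit eIF3d can recruit directly. The leader of JUND was 89.9% G and C, above 99.2% of transcripts, and those of the other 9 genes held between 61.3% and 75.0%. Upstream ATGs, where a ribosome may start ahead of the main coding region, were found in JUN (3), IER2 (2) and KLF6 (1). Over the protein-coding transcripts 48.9% have at least 1. The upstream starts are shown as above, with the upstream ATG in capitals.
JUN upstream start 1: ggtggagtctccATGgtgacg
JUN upstream start 2: cgacgcgagccaATGggaagg
JUN upstream start 3: tggggtgacatcATGggctat
IER2 upstream start 1: caggcacgggcaATGagtgtt
IER2 upstream start 2: tggaaagcccggATGcgtcct
KLF6 upstream start 1: cctggagtttgcATGaaactt
The 3 frames of JUN run for 20, 12 and 4 codons and those of IER2 for 22 and 16 codons, and all 5 end inside the leader. The frame of KLF6 is 90 codons long and ends beyond the main start, in another reading frame. The upstream starts of JUN lie 1037 to 1104 bases before the main start, and all 3 lie ahead of the transcription start that RefSeq gives, which is 280 bases downstream of the GENCODE one. A JUN message starting at the RefSeq position would hold none of them. Other annotated coding transcripts of a gene can also differ: those of IER2 hold 0 to 9 upstream ATGs, those of MYC 0 to 7, those of FOSL2 0 to 3 and those of FOSL1 0 to 1. Which of these leaders the cells used was not measured here. As a group, transcripts with an upstream ATG were called higher in 0.949% of cases in the authors' deposited table and those without one in 1.24%.

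Coding regions of the 10 messages were shorter and richer in G and C than the median transcript, by margins that differed between genes. JUN, JUNB, JUND and IER5 have 1 exon, as do 221 of the 10560 protein-coding transcripts (2.09%), and none of the 10 has more than 4 exons, where the median transcript has 9. All 10 coding regions were shorter than the median of 1389 bases, running from 471 bases in IER3 to 1365 in MYC, which is close to the median. All 10 were also above the median GC content of 52.2%, from 55.5% in KLF6, above 61.0% of transcripts, to 73.3% in JUND, above 99.5%. JUN, IER2 and IER3 lay within this range at 64.4%, 69.5% and 67.5%, beside 67.8% in JUNB and 72.5% in IER5. Of the called genes JUN has 1 exon, and IER2 and IER3 have 2. Of the 221 transcripts with 1 exon, the authors' deposited table calls 6 higher and 16 lower. That is 9.95%, beside 2.20% over all transcripts. Over the protein-coding transcripts alone, with the adjustment made over these, the share was 2.36%.

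**Figure D3:**
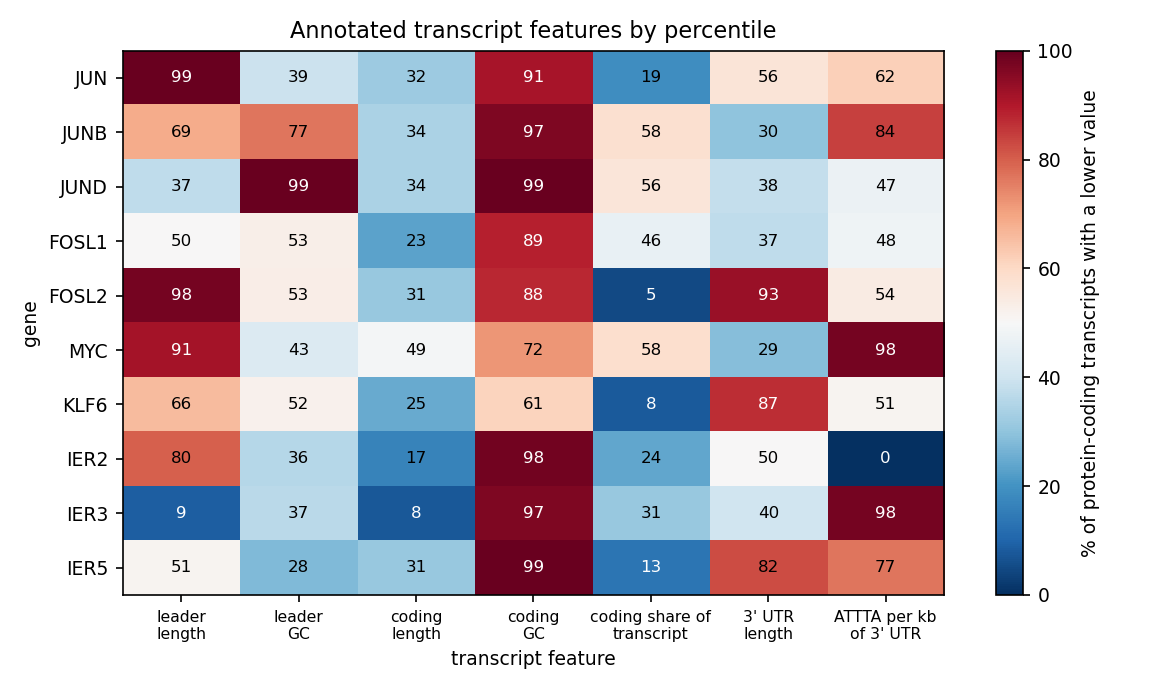
Share of protein-coding transcripts of the table (colour and number, in %) that have a lower value than each gene (rows) for 7 features of the annotated transcript (columns). Coding GC is above and coding length below the median in every row, by little for the GC of KLF6 and the length of MYC, while leader length and the density of ATTTA differ from gene to gene.

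AU-rich elements, the 3′ UTR signals that mark many immediate early messages for rapid decay, were uneven. The core pentamer ATTTA occurred at least once in the 3′ UTR of 9 of the 10 genes, and in 68.6% of protein-coding transcripts. IER2 had none in 1050 bases. The pentamer was densest in MYC, with 4 in 476 bases, and IER3, with 6 in 737 bases, or 8.40 and 8.14 per 1000 bases against a median of 1.63. JUN had 3 in 1287 bases. The stricter nonamer of 9 letters, TTATTTA followed by A or T at each of the last 2 places, was found in FOSL2 once and in IER5 in 4 overlapping copies, and in 19.4% of transcripts. The sites are shown with the nonamer in capitals, the first copy for IER5.
FOSL2 nonamer: ttattttaTTATTTATTttaaatgt
IER5 nonamer 1: gtcttcctTTATTTATTtatttatt
The pentamers overlap the nonamers, and only the transcript strand was searched. Of the 3 called genes, IER3 was rich in pentamers, JUN intermediate and IER2 without any.

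Little of the sequence of these genes recurs elsewhere. Of all stretches of 28 bases, about a footprint in size, in JUN, JUNB, FOSL2, MYC, KLF6 and IER2, 0 recur in a transcript of another gene, and JUN, JUNB and JUND share 0 with each other. FOSL1 shares 19.3% of its coding stretches with the pseudogene FOSL1P1, and whether this bears on its low efficiency was not tested. IER3 shares 1.80% and JUND 0.590% of coding stretches with other genes, and IER5 shares 1.30% of all its stretches and 0 of its coding ones. On the opposite strand, AC011446.2 covers 45.4% of the IER2 transcript, IER3-AS1 covers 28.9% of that of IER3 and HOOK2 covers 14.2% of that of JUNB. The sources used here do not say whether counting used strand, so reads of these pairs cannot be told apart, and antisense RNA in the values of IER2 and IER3 was not tested. JUN has no such overlapping gene.

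Other immediate early genes changed in both directions. Of 35 measured genes of that list, the authors' deposited table calls 4 higher and 3 lower, beside 1.07% higher and 1.12% lower over all transcripts, and the list median was −0.02 in log2 change. In log2 units of the authors' deposited table, the growth factor HBEGF rose by 1.96 (adjusted p = 0.023), PHLDA1, a protein with a pleckstrin homology-like domain, by 0.92 (adjusted p = 2.5e-09), and the leucine zipper factor CEBPB and the MAP kinase phosphatase DUSP1 by 0.57 each. For 3 genes the authors' deposited table gives a fall: the leucine zipper factor CEBPD fell by 1.17 (adjusted p = 0.020), the zinc finger factor KLF4 by 0.74 (adjusted p = 0.0031) and the matricellular CCN2 by 0.35. In the list of further AP-1 and MAF leucine zipper factors, the authors' deposited table calls 1 of 10 measured members, the small MAF protein MAFF, which rose by 0.87 (adjusted p = 0.028), and the list median was 0.29. FOS, the classical partner of JUN and picked out after its value was seen, is listed in the authors' deposited table at 0.69 (adjusted p = 0.95). The relatives of KLF6 had 1 call among 15 measured KLF and SP factors, the fall of KLF4, and a median of −0.08.

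Genes that act on immediate early factors had no calls, in lists of 8 to 18 measured genes where 2.20% of all transcripts were called, so nothing is read from their absence. Of 18 kinases and factors that induce them 0 passed, with 14 above 0 and a median of 0.16; the smallest listed by the authors' deposited table was an adjusted p of 0.28, for the ribosomal S6 kinase RPS6KA3 (log2 change 0.84), followed by the ETS factor ELK3 (0.63, adjusted p = 0.44). In the MYC network 0 of 8 passed, with a median of −0.01, and the authors' deposited table lists the MYC partner MAX at −0.42 (adjusted p = 0.69) and the MYC antagonist MXD1 at −0.63 (adjusted p = 0.73). Of 15 AU-rich element binding and deadenylation factors 0 passed, with a median of −0.02. Among them the authors' deposited table lists the decay factor ZFP36L1 at −0.27 (adjusted p = 0.40) and the stabilising protein ELAVL1 at 0.46 (adjusted p = 0.51). Of 10 ubiquitin ligases and deubiquitinases of JUN and MYC 0 passed; the authors' deposited table lists STUB1 at 0.31 (adjusted p = 0.73) and FBXW7, the ligase subunit that recognises phosphorylated JUN and MYC, at −0.81 (adjusted p = 0.80). Over the 7 lists, 103 different genes were measured, and 5 were called higher and 3 lower, which is 7.77% beside 2.20% over all transcripts. Of these 8 called genes, 7 are in the list of other immediate early genes. The lists were chosen with earlier results of these data known, so nothing is read from this share.

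**Figure D4:**
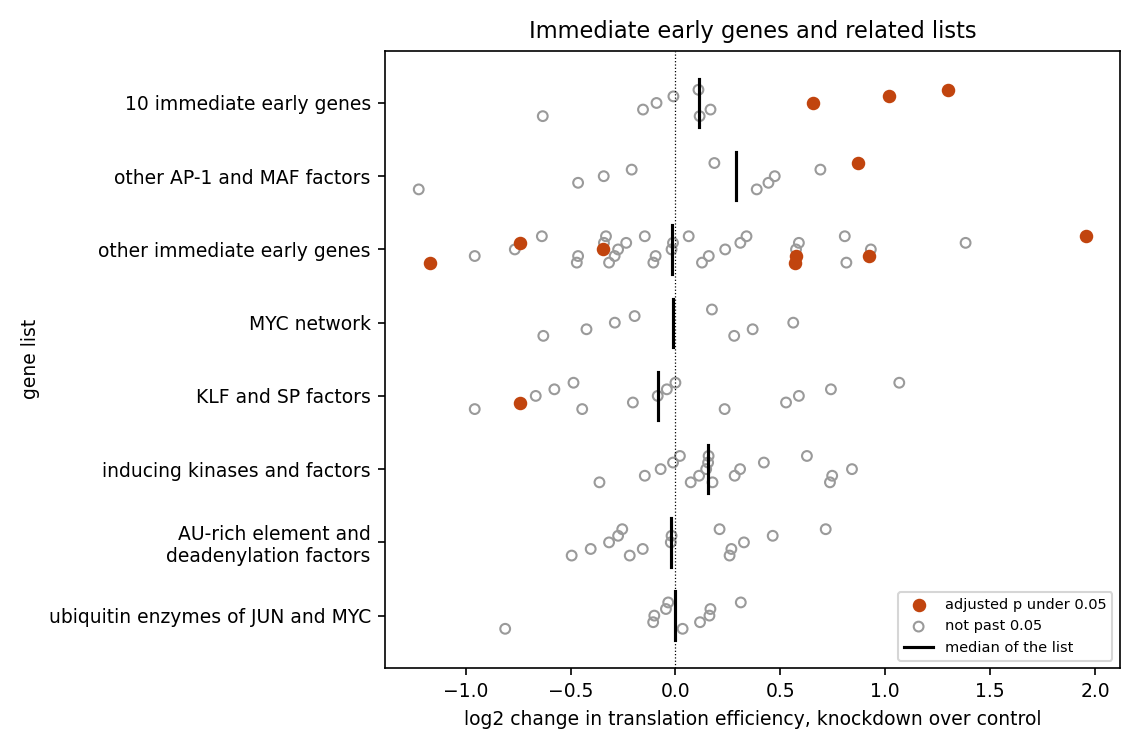
Log2 change in translation efficiency of knockdown over control cells (x axis) for each gene of the 10 immediate early genes and of 7 related lists (rows); filled orange points have an authors' adjusted p under 0.05, open points do not, and black bars are list medians. Called genes lie on both sides of 0 among the other immediate early genes, and the 4 lists without a called point hold 8 to 18 genes each, where 2.20% of all transcripts were called.

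The transcripts nearest to IER2 in knockdown and control efficiency together, by Euclidean distance over these 2 values, were SYT7 (distance 0.047), RNF2 (0.054) and SMIM3 (0.061). In the authors' deposited table their log2 changes were 1.27, 1.38 and 1.23, with adjusted p-values of 0.25, 0.63 and 0.060, so none of the 3 was called. The control level was derived from the change, so transcripts near IER2 in both levels have a similar change by construction.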

How the data were processed

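RNA-seq and ribosome profiling were compared through the authors' deposited table. Per the file headers, it holds log2 values (the change in translation efficiency by 2 methods and in a final form, and the knockdown's efficiency) and the p-values that go with them. In all 12109 transcripts the final p-value the authors deposited is the larger of both methods' and the adjusted one is its Benjamini-Hochberg adjustment. Per the submitters' processing notes, cutadapt, Bowtie, hg38 and GRCh38 were used. The program that compared efficiencies is not stated in these sources. Nothing in the labels says that replicates came from separate cultures, so the p-values may measure only technical spread. Depth is unknown.

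Control efficiencies were derived by subtracting the log2 change of method 2 from the knockdown's log2 efficiency. Identifier digits matched 11590 transcripts to GENCODE 29 (GRCh38), 10560 of them protein-coding, in which lengths, GC content and motifs were counted with Python 3.11.15 and pandas 2.3.3. Where several transcripts shared the digits, the one with the entry's name or type was preferred. Where none had it, a transcript under another name was kept, so some background transcripts may be wrongly matched. RefSeq starts are on GRCh38.p14. Of the code, the Benjamini-Hochberg adjustment was tested on simulated p-values. The functions for motifs, upstream frames and printed windows were tested on short made-up sequences. Members, the 7 related lists and the rule for naming list genes (all called, otherwise the 2 with the lowest adjusted p) were chosen with earlier results of these data known.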

Additional observations from a re-analysis of the deposited data

How the results depend on the processing

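No paired analysis was possible because the table holds no values of single libraries, and the planned replicate block and leaving out of replicates were not run. JUN, IER2 and IER3 were the called members at an adjusted p of 0.01 (1.52% of all transcripts called) or 0.1 (2.81%), with method 1 alone (3.77%) or method 2 alone (2.82%), and with adjustment over protein-coding transcripts only (2.36%). With a minimum of 2-fold, 2 members, JUN and IER2, were left (0.908%). All 30 recomputed log2 changes of the 10 members, from either method or centred on protein-coding transcripts, kept their direction and their side of the threshold. For all 10 members the final change is the method 2 value. With method 2 their direction was therefore fixed, and only the adjusted p was recomputed. Centring subtracted 0.017 from every change and left the adjusted p as it was. Only method 1 gave separate changes: 1.018 for JUN and −0.633 for IER5, beside final values of 1.020 and −0.632. An adjusted p of 0.1 gave 9 called genes over the related lists in place of 8. The 7 list medians moved by less than 0.1 and 0 changed sign with method 1. The 2 methods use the same reads, so this is no independent check.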
